A study of Mus musculus with 2 samples.

Results

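Open chromatin at the promoters of long non-coding RNA (lncRNA) genes that stand apart from protein-coding genes was described in the adrenal gland of female mice. The members were chosen from DNase-seq peaks found in both libraries of the study. They are the shared peaks on chromosomes 1 to 19 whose centre lay within 500 bp of a transcription start site (TSS) of a GENCODE M21 gene annotated as lincRNA, antisense, processed_transcript, sense_intronic or bidirectional_promoter_lncRNA, and over 5 kb from every protein-coding TSS. A shared peak is a replicate 2 peak overlapped by a replicate 1 peak. The rule found 547 peaks among 38180 shared peaks. The nearest lncRNA TSS belonged to 464 genes, of which 395 held 1 member peak and 69 held 2 or more.

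A lncRNA is a transcript without a recognised protein product. Some work as the RNA itself, some are hosts from whose introns snoRNAs or miRNAs are cut, and for many no function is known. Their promoters recruit RNA polymerase II as those of protein-coding genes do, and many regions annotated as lncRNA promoters also resemble enhancers, which are transcribed as well. DNase I cuts DNA where nucleosomes are displaced, so a peak marks an accessible stretch, and a footprint is a short run of bases inside it that is cut less often than its surroundings, as under a bound protein.

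The study holds 1 group of 2 libraries, labelled as biological replicates 1 and 2, from adrenal glands of B6CASTF1/J females at 4 days of age. B6CASTF1/J mice are first-generation hybrids of the C57BL/6J and CAST/EiJ strains, and the 2 parental alleles were not separated. The sample descriptions speak of several females per sample and both samples carry 1 donor identifier, so whether the libraries differ by animals or by pools is unknown here, and spread between them may be technical. Whole glands hold cortex, medulla, vessels and capsule, and a weaker peak in such tissue can mean fewer open cells or a less open site.

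Because there is 1 group and the members were selected on peak calls in these libraries, values are given per library as a description and no test was made. Replicate 1 had 44573 peaks and 95831 footprints on chromosomes 1 to 19, and replicate 2 had 84379 and 138423. The sources used here give neither read depth nor the scaling of the deposited signal. Of the protein-coding genes, 61.5% had a shared peak centred within 1 kb of a TSS, and 60% within 500 bp. The labelled tissue was checked in the same way. A shared peak within 1 kb was found at 17 of 22 cortex genes (77.3%), at 16 of 23 genes of steroid synthesis and cholesterol supply (69.6%) and at 9 of 18 medulla genes (50%). Cyp11a1, the enzyme that starts steroid synthesis, and Nr5a1, the master regulator of steroid-producing cells, were among those with a peak. Star, Cyp11b1, Cyp21a1 and Mc2r of the cortex and Th, Dbh and Pnmt of the medulla had none.

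The sequences that carry the findings come from the mm10 assembly (GRCm38.p6). They are read 5′ to 3′ on the strand of the lncRNA, in lower case, with bases in capitals where the footprints of both libraries overlap. The first is the strongest member, the second the strongest of the rest, the third holds a tRNA gene, the fourth has 3 guanine-rich stretches in capitals, and the others are the promoters of well-known lncRNAs.
Gm42418: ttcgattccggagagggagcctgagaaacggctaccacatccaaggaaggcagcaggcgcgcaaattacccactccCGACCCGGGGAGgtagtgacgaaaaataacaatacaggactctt
Gm15408: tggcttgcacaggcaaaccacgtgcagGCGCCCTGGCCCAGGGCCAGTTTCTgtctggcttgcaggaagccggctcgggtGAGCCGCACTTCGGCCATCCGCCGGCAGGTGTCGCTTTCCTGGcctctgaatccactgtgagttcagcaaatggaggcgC
Gm11205: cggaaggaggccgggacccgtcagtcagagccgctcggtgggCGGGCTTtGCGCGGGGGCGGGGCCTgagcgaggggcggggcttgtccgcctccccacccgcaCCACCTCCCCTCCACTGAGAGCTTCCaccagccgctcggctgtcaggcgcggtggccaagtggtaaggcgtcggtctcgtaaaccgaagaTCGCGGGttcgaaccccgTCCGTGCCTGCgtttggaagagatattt
1700096K18Rik: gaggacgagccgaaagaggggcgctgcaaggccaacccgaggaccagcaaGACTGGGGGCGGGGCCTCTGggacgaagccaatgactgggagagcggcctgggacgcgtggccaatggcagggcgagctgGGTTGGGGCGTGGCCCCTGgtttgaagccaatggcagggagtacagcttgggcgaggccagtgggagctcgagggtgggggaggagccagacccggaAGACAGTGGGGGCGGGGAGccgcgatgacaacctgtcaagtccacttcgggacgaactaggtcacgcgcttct
Snhg15: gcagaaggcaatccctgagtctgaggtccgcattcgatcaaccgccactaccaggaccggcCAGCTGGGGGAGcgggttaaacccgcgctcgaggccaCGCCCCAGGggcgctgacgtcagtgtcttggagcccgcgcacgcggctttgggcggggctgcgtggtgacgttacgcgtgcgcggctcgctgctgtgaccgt
Snhg8: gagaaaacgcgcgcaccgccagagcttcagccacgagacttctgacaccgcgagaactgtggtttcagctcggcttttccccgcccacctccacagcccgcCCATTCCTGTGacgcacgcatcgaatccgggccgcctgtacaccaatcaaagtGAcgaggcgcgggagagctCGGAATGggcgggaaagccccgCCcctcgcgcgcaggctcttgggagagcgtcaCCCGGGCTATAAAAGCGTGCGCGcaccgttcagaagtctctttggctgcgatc
Dleu2: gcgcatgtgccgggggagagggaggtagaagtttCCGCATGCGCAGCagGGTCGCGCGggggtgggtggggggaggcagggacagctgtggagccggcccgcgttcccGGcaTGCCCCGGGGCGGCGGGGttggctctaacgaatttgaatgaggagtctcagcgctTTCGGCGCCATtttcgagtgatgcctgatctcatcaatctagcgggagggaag
Malat1: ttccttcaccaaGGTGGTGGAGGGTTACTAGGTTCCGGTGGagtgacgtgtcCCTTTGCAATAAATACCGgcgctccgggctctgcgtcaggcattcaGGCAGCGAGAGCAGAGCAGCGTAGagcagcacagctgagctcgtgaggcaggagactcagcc
In order, they lie at chr17:39846781-39846900 (+), chr5:149006821-149006980 (+), chr11:79704501-79704740 (+), chr5:25529581-25529880 (+), chr11:6528761-6528960 (-), chr3:123508321-123508600 (-), chr14:61648741-61648960 (-) and chr19:5802601-5802760 (-). Each is a whole member peak of replicate 2.

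Standalone lncRNA promoters were about as open as the average shared peak and less open than protein-coding promoters. The deposited signal, the authors' own value for each peak, had a median of 1.01 in replicate 1 and 2.07 in replicate 2 over the 547 members. Over all shared peaks the medians were 1.08 and 2.26. They were 1.59 and 3.03 at the 17406 peaks within 500 bp of a protein-coding TSS, and 0.836 and 1.90 at the 11205 distal peaks over 5 kb from any TSS. The 322 lncRNA promoter peaks that lay over 500 bp and up to 5 kb from a protein-coding TSS had 1.08 and 1.86. A lncRNA promoter peak nearer than that counts among the 17406 coding ones. The members thus lay between distal sites and coding promoters in both libraries. The quartiles of the members, 0.716 to 1.71 in replicate 1 and 1.20 to 3.66 in replicate 2, overlapped those of every other class.

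**Figure D1:**
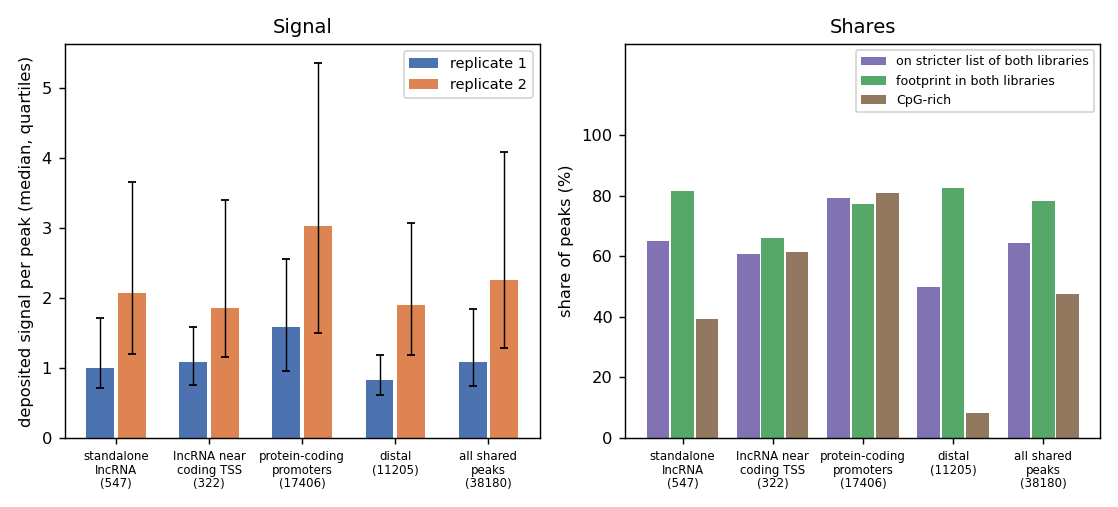
Left, median deposited signal per peak in each library (bars) with quartiles (lines) for 5 classes of shared peaks, with the number of peaks in parentheses; right, the share of peaks in each class that overlap the stricter peak list of both libraries, hold a footprint in both, or are CpG-rich. The lncRNA peaks near a coding TSS lie over 500 bp and up to 5 kb from one, and nearer ones count as protein-coding promoters. Members sit between distal peaks and protein-coding promoters in signal (medians 1.01 and 2.07) and in CpG-rich share (39.3%).

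The libraries ranked the members alike. Spearman's coefficient between the deposited signals of the libraries was 0.890 across the 547 members and 0.878 across all shared peaks; peaks of 1 library share its depth and preparation, so this is a description. Replicate 2 had the higher value at 530 members (96.9%), against 96.1% of all shared peaks, and the median ratio of replicate 2 to replicate 1 was 1.98 against 1.99. The ratio of the members was thus like that of the rest. The 547 members correspond to 526 replicate 1 peaks, since 42 members share 21 of them and then carry the same replicate 1 value. Of the members, 356 (65.1%) overlapped the authors' stricter list in both libraries, close to the 64.3% of all shared peaks. A further 96 were on the stricter list of replicate 2 alone, 8 on that of replicate 1 alone and 87 on neither.

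**Figure D2:**
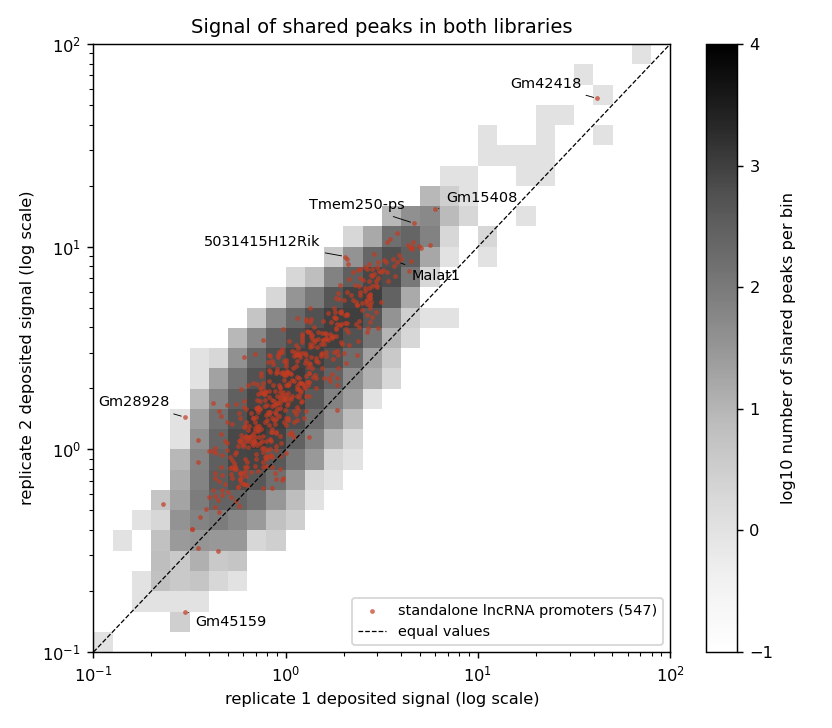
Deposited signal of each shared peak in replicate 1 (x) and replicate 2 (y), both on log scales. Red points are the 547 members, grey shading is the number of all shared peaks per bin, and the dashed line marks equal values. Members spread along the same diagonal as all shared peaks, with Gm42418 far above the rest (41.6 and 53.9) and Gm45159 at the bottom of replicate 2 (0.158).

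The ends of the range were about as full as for all shared peaks. In both libraries 37 members (6.76%) were in the top 10% of shared peaks by signal, against 7.67% of all shared peaks, and 36 (6.58%) were in the bottom 10%, against 5.45%. Gm42418, a lincRNA gene on chromosome 17 known to lie over a copy of ribosomal RNA sequence, stood apart with 41.6 in replicate 1 and 53.9 in replicate 2. Its peak was 120 bp long, lay 117 bp upstream of the TSS and held 1 stretch protected in both libraries. The central 50 bases of this peak occur at 2 places in the assembly, whereas those of the other 11 of the 12 strongest members occur at 1 place. Copies missing from the assembly are not counted here. The part of sequence copies in that signal was not tested.

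The next strongest members were single-copy promoters. Gm15408, a lincRNA gene that starts 11.8 kb from the protein-coding gene Gm42791, had 5.99 and 15.3, and its 160 bp peak covered the TSS. Tmem250-ps had 4.65 and 13.04 with 7 footprints in replicate 1 and 6 in replicate 2; RefSeq annotates this gene as protein-coding. Gm11205 had 5.65 and 10.2, and the lincRNA gene 9430037G07Rik had 4.92 and 10.1. 1700096K18Rik had 4.58 and 10.5, and each of its 3 footprints shared by the libraries, in capitals above, held guanine-rich sequence, 2 of them with a GC box. Gm33195, Snhg7os, Snhg15, 1810026B05Rik, Gm31812 and Gm10010 complete the 12 strongest, with 3.78 to 5.07 in replicate 1 and 9.77 to 11.7 in replicate 2. At each of the 12 the signal was higher in replicate 2.

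At the other end, Gm45159 had the lowest mean rank, with 0.298 and 0.158 and no footprint in either library. It starts inside Dlg2, a synaptic scaffold gene. Gm5784 (0.350 and 0.325), Gm11751 (0.324 and 0.405), Mir124-2hg (0.324 and 0.405) and Gm8239 (0.358 and 0.466) followed. Mir124-2hg hosts miR-124, the miRNA best known from neurons. None of these 5 held a footprint in replicate 1.

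The ratio of replicate 2 to replicate 1 was highest at Gm28928, with a replicate 1 signal of 0.298, a replicate 2 signal of 1.44 and hence 4.83 times as much. Gm7480 (0.606 and 2.85), Gm35667 (0.759 and 3.46), 5031415H12Rik (2.04 and 8.95) and AW495222 (0.691 and 2.96) had ratios of 4.29 to 4.71. Gm45159 had the lowest ratio, 0.530, which is farther from the median ratio of 1.98, as a fold, than that of Gm28928. With 1 value per library, no error could be put on a single member, and the order of members with near values was not resolved.

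The thresholds of the rule fall within the ordinary range of signal. Just inside the 500 bp limit, 4930431P22Rik had 0.495 and 1.37 and Gm10432 had 0.759 and 1.16, both with centres 500 bp from a TSS. Just outside, Gm26738 at 504 bp had 1.01 and 2.99 and Gm29266 at 505 bp had 0.520 and 0.774. Just over 5 kb from a protein-coding TSS, Ptprv at 5035 bp had 1.22 and 3.00 and Gm49782 at 5092 bp had 0.887 and 1.49. Just within it, the peak at Gm10143 at 4903 bp had 1.33 and 4.87 and that at Gm34921 at 4895 bp had 0.606 and 1.10.

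Most annotated lncRNA genes with a standalone TSS had no member peak there. Of 6562 genes of the 5 types with a TSS over 5 kb from every protein-coding TSS, 481 (7.33%) had a member peak within 500 bp of one; this count takes every TSS within reach, not only the nearest. For protein-coding genes the share with a shared peak within the same 500 bp was 60%. These shares count a gene if any of its starts qualifies, and the number of annotated starts per gene was not matched. The lncRNA share asks for a member peak, the coding share for any shared peak. By type, the lncRNA share was 18.5% for processed_transcript genes (75 of 405) and 7.25% for lincRNA genes (329 of 4536). It was 5.4% for antisense genes (75 of 1390) and 0.897% for sense_intronic genes (2 of 223). None of the 8 bidirectional_promoter_lncRNA genes had one. In peaks, the nearest gene was a lincRNA for 359 members, a processed_transcript for 103, an antisense gene for 82 and a sense_intronic gene for 3. The 103 processed_transcript peaks had medians of 1.22 and 2.29 and 78.6% on the stricter list of both libraries. For lincRNA peaks these values were 0.964, 1.94 and 61.6%.

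By chromosome, chromosome 17 held 49 of 278 eligible genes with a member peak (17.6%) and chromosome 8 held 11 of 407 (2.70%), the ends of the range. Chromosome 17 carried 52 member peaks, 9.51% of all members against 4.81% of all shared peaks. Of these 52 peaks, 19 (36.5%) were nearest to a gene still named after a sequenced clone, against 20 of the 495 members elsewhere (4.04%). The part of this naming, a sign of recent annotation, in the high share was not tested.

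Some of these genes are coding by another annotation. Of the 464 gene symbols, 298 matched the RefSeq table, and 19 of the matched genes are protein-coding there. Besides Tmem250-ps they include 1810058I24Rik (2.58 and 6.26), Zswim6 (3.60 and 8.67), Spata5l1 (1.75 and 3.55), Ptpmt1 and Trerf1, named here after their values were seen. Within 500 bp of a curated RefSeq coding TSS lay 32 member peaks. The 37 peaks within 5 kb of one had medians of 0.895 and 1.67, and the 510 others 1.02 and 2.08.

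lncRNAs of known role were looked up in a list of 63 names, of which 55 were annotated, 53 were of the 5 types and 39 had a standalone TSS. A member peak was found at 19 of these 39. By the role each was listed under, the counts were 7 of 7 snoRNA hosts, 6 of 10 miRNA hosts and 2 of 8 imprinted lncRNAs. For nuclear lncRNAs they were 1 of 3, and for developmental and other lncRNAs 3 of 11. Each gene counts under a single role, though some have several. Mirt1, among the miRNA hosts, is named as a myocardial infarction associated transcript, and Mirg, which carries miRNAs, counts as imprinted. Neither had a member peak. The list was picked from well-studied, often abundant RNAs, so its share is not comparable with the 7.33% of all standalone genes.

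Every gene listed under snoRNA hosts with a standalone TSS was open in both libraries. These genes carry small nucleolar RNAs, the guides of ribosomal RNA modification, in their introns. Snhg15 led with 4.32 and 10.2, followed by Snhg8 with 3.19 and 7.71 and Snhg5 with 3.14 and 7.49. Snhg12 (1.91 and 4.12), Snhg17 (1.59 and 3.76), Snhg6 (1.82 and 3.64) and Snhg20 (1.33 and 3.21) followed. All 7 lay above the member medians of 1.01 and 2.07 in both libraries. Snhg14 and Rian, listed as imprinted though they also host snoRNAs, had standalone TSSs but no member peak. The Snhg8 peak, printed above, reads TATAAA within a stretch protected in both libraries, and Snhg5 and Snhg7os also held this string within 200 bp around the peak centre.

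The miRNA hosts were more uneven. Dleu2, whose transcript carries miR-15a and miR-16, had 4 member peaks at 2 places about its alternative starts. The peak at chr14:61648741-61648960, 29 bp upstream of a TSS, had 3.71 and 7.20 with 6 and 4 footprints. The peak at chr14:61682421-61682640 had 2.81 and 4.50, and the 2 peaks beside these had no footprint. Lncpint, a p53-induced lncRNA, had 3 peaks with up to 2.35 and 5.14, and Mir670hg had 1.54 and 3.76. Mir99ahg, the host of miR-99a and let-7c, had 5 peaks spread over alternative starts, the strongest near the member medians with 0.998 and 2.08 and the weakest with 0.426 and 0.519. Mir155hg, host of the immune-cell miRNA miR-155, had 0.785 and 1.36 at its stronger peak, and Mir124-2hg had 0.324 and 0.405. Signal in this group therefore ranged from among the highest to among the lowest of all members.

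Among imprinted lncRNAs, Kcnq1ot1, an antisense RNA inside Kcnq1 that is transcribed from the paternal allele, had 1.30 and 2.16 at a peak 52 bp upstream of its TSS, with 3 footprints in replicate 1 and 8 in replicate 2. Peg13, which lies inside Trappc9, had a pair of peaks with 1.42 and 3.47 and with 0.930 and 1.70. No member peak was found at Meg3, H19, Airn, Rian, Mirg or Snhg14. At Meg3 replicate 2 had a peak of 1.72 centred 50 bp from a TSS that replicate 1 did not match, and the nearest shared peak lay 783 bp from a TSS. At Airn each library had a peak within 23 bp of a TSS (0.853 and 0.888), but the nearest shared peak lay 5250 bp away. Rian had no peak within 500 bp in either library.

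Malat1, an abundant nuclear RNA of splicing speckles, had 3.81 and 8.42 with 3 footprints in each library, all 3 overlapping between the libraries. Its neighbour Neat1, the RNA that builds paraspeckles, had no member peak. A shared peak lay 433 bp from a Neat1 TSS (2.87 and 7.30). That is within 500 bp, but the peak did not count as a member peak of this gene. Replicate 2 also had a peak of 4.39 centred 15 bp from a Neat1 TSS. The gene has 4 standalone starts. Dubr had 1.94 and 4.72 and Pvt1, which begins downstream of the oncogene Myc, had 1.14 and 2.00 at its first promoter. 2900097C17Rik, the mouse counterpart of NORAD, an RNA that binds Pumilio proteins, had 1.25 and 1.43. Of the 20 listed lncRNAs with a standalone TSS and no member peak, 10 had a replicate 2 peak and 4 a replicate 1 peak within 500 bp of a TSS, and 9 had none in either library. Among these 9 are Hotair, H19, Miat, Mirt1 and Sox2ot. The shared peaks nearest to Mir17hg (598 bp), Mir9-3hg (615 bp) and Fendrr (681 bp) were centred beyond the 500 bp of the rule. At Crnde, also without a member peak, a shared peak lay 51 bp from a TSS (2.55 and 5.61). A further 14 listed genes had no standalone TSS, and at 12 of them, among them Gas5, Snhg1 and Zfas1, a shared peak lay within 500 bp of a TSS.

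**Figure D3:**
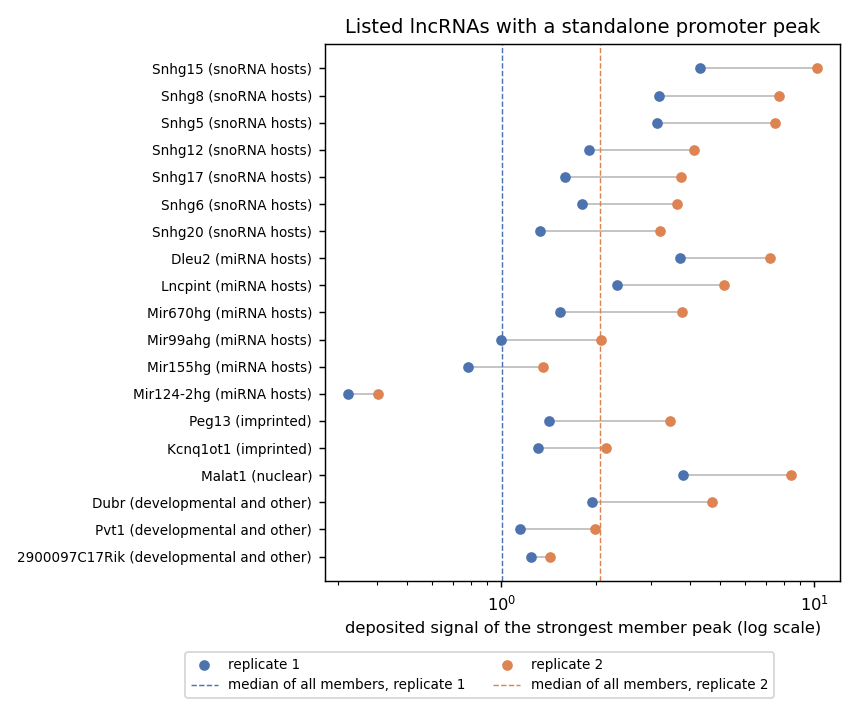
Deposited signal of the strongest member peak in replicate 1 (blue) and replicate 2 (orange) for the 19 listed lncRNAs with a standalone promoter peak, on a log scale, with dashed lines at the medians of all 547 members. All 7 genes listed under snoRNA hosts lie right of both medians. Those listed under miRNA hosts run from 0.324 at Mir124-2hg to 3.71 at Dleu2 in replicate 1.

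Some member peaks also overlap a tRNA gene, which RNA polymerase III transcribes. Of 386 RefSeq tRNA genes, 9 overlapped a member peak by at least 1 bp. Thus 1.65% of members overlapped one, against 164 of all shared peaks (0.430%). The strongest was Gm11205, whose peak holds the threonine tRNA gene n-TTcgt3 and is printed above with 5 stretches protected in both libraries. B230208H11Rik (2.80 and 7.73) overlaps a leucine tRNA gene and Gm11527 (3.25 and 8.62) a glutamine tRNA gene. The others were Gm11292 (valine), Gm45605 (tryptophan), 4930555B11Rik (alanine), AC154766.4 (arginine), Gm46404 (valine) and Gm16170 (threonine). All 9 lay above the member medians, spanning 1.86 to 5.65 in replicate 1 and 3.77 to 10.2 in replicate 2. All 164 shared peaks overlapping tRNA genes had medians of 1.64 and 3.75. Which of the polymerases opens these sites cannot be told apart here. No member peak overlapped a RefSeq snoRNA, snRNA, rRNA or miRNA precursor feature. For rRNA this covers only the 60 features that RefSeq lists on these chromosomes. It does not speak against the ribosomal RNA sequence at Gm42418 described above.

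The peaks sat mostly upstream of the start site. Distance to a TSS was part of the rule, but the side was not. The centre was upstream at 355 members (64.9%), with a median position 42 bp upstream, and 250 centres (45.7%) lay within 100 bp of the TSS. The peak covered the TSS itself at 263 members (48.1%). These 263 had medians of 1.13 and 2.20 with 71.5% on the stricter list of both libraries, and the 284 others 0.934, 1.83 and 59.2%. By annotation of the centre, 290 peaks lay upstream of the gene, 158 in an exon of the lncRNA and 99 in an intron. Peaks upstream of the gene had medians of 1.16 and 2.48, those centred in an exon 0.891 and 1.65, and those in an intron 0.895 and 1.73.

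Footprints were about as frequent as over all shared peaks, and more frequent than at lncRNA promoter peaks near a coding TSS. A footprint was present in both libraries at 445 members (81.4%), against 78.3% of all shared peaks. The share was 77.3% at coding promoters, 82.6% at distal peaks and 66.1% at lncRNA promoter peaks near a coding TSS. At 350 members (64%) a replicate 1 footprint overlapped one of replicate 2, against 65.6% of all shared peaks. This share was 64% at coding promoters, 71.6% at distal peaks and 50.3% at lncRNA promoter peaks near a coding TSS. Footprints covered members at 9.94 per kb in replicate 1 and 11.6 per kb in replicate 2, and all shared peaks at 9.91 and 11.1 per kb. The distinct footprints in members had median widths of 9 bp and 10 bp, the same as in all shared peaks.

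The position of footprints followed the start site. Of 696 stretches in members where footprints of the libraries overlapped, 71.7% lay upstream of the TSS, with a median position 62 bp upstream. A footprint that overlapped more than 1 of the other library counts once for each. Within 100 bp upstream lay 35.8% of the stretches, and within 100 bp downstream 12.2%. The fullest 50 bp step was 100 to 50 bp upstream with 134 stretches, beside 84 peak centres. In the 50 bp just downstream of the TSS there were 45 stretches and 42 peak centres. The footprints thus tracked the peaks, and how far their place reflects that of the peaks was not tested.

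**Figure D4:**
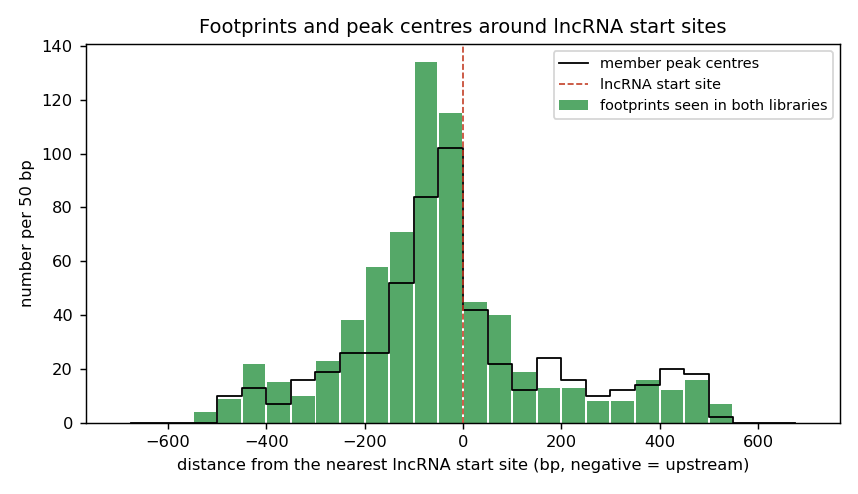
Number of stretches where footprints of the libraries overlap (green bars) and of member peak centres (black line) per 50 bp. Both are by distance from the nearest lncRNA start site (dashed line, negative values upstream). The stretches are most frequent 100 to 50 bp upstream (134) and drop to 45 in the first 50 bp downstream.

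Single promoters differed widely in footprints, from 0 to 10 in replicate 1 and 0 to 8 in replicate 2, with a median of 2 in each. Gm44066, a lincRNA gene 16.9 kb from the natural killer receptor gene Klrb1b, had 10 and 8 footprints with 8 stretches of overlap, at a signal of 2.09 and 4.65. Zswim6 had 9 and 7, 1810026B05Rik 8 and 6, 6720427I07Rik 6 and 8 and AC132957.1 8 and 6. The widest member, at 9630013D21Rik with 660 bp, had 7 and 5 footprints at a low signal of 0.648 and 1.31, and 1 of them was shared. At Snhg6, 5 footprints in replicate 1 and 1 in replicate 2 did not overlap.

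The sequence under the members was intermediate in CpG content. Over 200 bp at the peak centre, the ratio of observed to expected CpG had a median of 0.524, against 0.584 in all shared peaks, 0.825 at coding promoters and 0.275 at distal peaks. With CpG-rich defined as a ratio of at least 0.6 and at least 50% G and C, 215 members (39.3%) were CpG-rich, against 47.4% of all shared peaks, 81.0% of coding promoters and 8.41% of distal peaks. The 215 CpG-rich members had medians of 1.57 and 2.98, and 80% were on the stricter list of both libraries. The 332 others had 0.866, 1.75 and 55.4%. The CpG-rich members thus lay near the medians of coding promoters (1.59 and 3.03), and the others near those of distal peaks (0.836 and 1.90). Footprints in both libraries were about as frequent in the CpG-rich members (82.8%) as in the rest (80.4%). Repeats covered at least 50% of the window at 7 members (1.28%), against 1.68% of all shared peaks.

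Short consensus strings were searched on both strands of the 200 bp windows, and a match is a description, not a site. The GC box (GGGCGG), read by SP and KLF factors, occurred in 36.0% of members and 38.2% of all shared peaks, and the CCAAT box (CCAAT), read by NF-Y, in 27.8% and 23.2%. The E-box (CACGTG) occurred in 8.41% and 5.73%, and AP-1 (TGANTCA) in 6.76% and 5.80%. The CTCF core (AGGGGGC) occurred in 9.32% of members, against 14.9% of all shared peaks, 14.3% of coding promoters and 15.7% of distal peaks. SF-1 (CAAGGTCA), the string of the steroid-cell regulator NR5A1, occurred in 6 members (1.10%), against 1.43% of all shared peaks. These were the peaks at Gm11638, BB218582, A930006L05Rik, BC043934, Gm5420 and the second Pvt1 peak. ETS (CCGGAAG) occurred in 7.13% and 7.08%, the NFI string (TTGGCA) in 10.1% and 10.7%, the string of GATA factors (AGATAA) in 3.47% and 3.85%, and the TATA box (TATAAA) in 3.66% and 3.34%. CRE (TGACGTCA) occurred in 1.46% and 1.49%, YY1 (AANATGGCG) in 1.28% and 2.11%, and NRF1 (GCGCATGCG) in 1.10% and 1.45%. Strings may overlap one another, and 146 members held none of the 13.

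Footprints covered some strings far more often than others. A match counted as covered when at least 50% of its bases lay in footprints of both libraries. For NRF1 this held at 7 of 8 matches in members (87.5%) and 71.2% in all shared peaks. The Dleu2 sequence above shows such a match, with its reverse complement inside capitals. The CTCF core was covered at 26 of 51 matches (51.0%, all shared peaks 46.8%) and CRE at 4 of 8 (50%, all 49.4%). Tmem250-ps held a covered CRE. GC boxes were covered at 64 of 330 (19.4%, all 18.5%) and CCAAT boxes at 16 of 188 (8.51%, all 7.97%). TATA boxes were covered at 5 of 23 matches (21.7%), against 5.11% in all shared peaks. ETS was covered at 1 of 44 matches (2.27%), below the 11.5% in all shared peaks, and this difference was not tested. AP-1 (41 matches), GATA (20) and SF-1 (6) were covered at none, against 1.42%, 1.63% and 4.52% in all shared peaks. For AP-1, GATA and SF-1, few or no covered matches were to be found at these numbers. Counts this small leave wide room for counting error, and the strings differ in base composition.

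The nearest protein-coding TSS lay 35.2 kb away in the median. It was 5 to 10 kb away for 72 members, 10 to 50 kb for 260, 50 to 100 kb for 96 and over 100 kb for 119. The farthest was C130073E24Rik, 2073 kb from Tenm3, with 0.452 and 0.695. Next came Gm11751 (806 kb from Brinp1), 2410018L13Rik (770 kb), Gm38584 (742 kb) and Gm4425 (739 kb). Gm38584 had 1.07 and 3.04 and the others at most 0.588 and 1.18. Signal medians were 1.33 and 3.01 in the nearest bin and 0.870 and 1.63 beyond 100 kb, and the quartiles of the bins overlapped. CpG-rich members made up 54.2% of the nearest bin and 29.4% of the farthest.

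**Figure D5:**
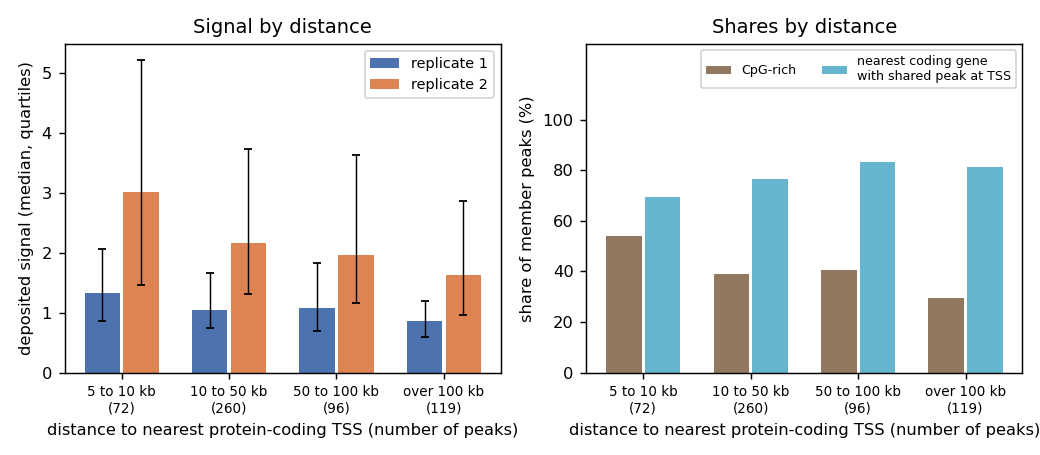
Left, median deposited signal of member peaks (bars) with quartiles (lines) in each library by distance to the nearest protein-coding TSS; right, the shares of members that are CpG-rich or whose nearest coding gene has a shared peak at a TSS. The signal medians are highest at 5 to 10 kb (1.33 and 3.01) and lowest beyond 100 kb (0.870 and 1.63).

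For 426 members (77.9%) the nearest protein-coding gene had a shared peak within 1 kb of a TSS. The share was 88.4% over all shared peaks, which include the coding promoters themselves, and 75.5% over distal peaks. The 431 distinct neighbours included 334 such genes (77.5%), against 72.5% of the distinct neighbours of distal peaks and 61.5% of all protein-coding genes. Among members it was 69.4% in the nearest distance bin and 81.5% in the farthest. Members beside an open gene had medians of 1.01 and 2.06, and those beside a gene without a shared peak 0.981 and 2.08. The state of the neighbour thus went with little difference in signal.

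Counted by member peak, the lncRNA ran on the same strand as the neighbour at 264 peaks, divergently at 158 and convergently at a further 125 (22.9%). The medians were 1.03 and 2.16, 0.981 and 1.83, and 0.998 and 2.08, and whether they differ was not tested. The TSS lay between coding genes for 479 members, inside a coding gene on the other strand for 58 and inside one on the same strand for 10. The stricter list of both libraries held 55.2% of the 58 opposite-strand members and 66.6% of the 479 between genes.

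No member had a gene of the lists for steroid synthesis and cholesterol supply or for the medulla as its nearest coding gene. Of the cortex list 1 gene was a neighbour. Wnt4, a signal of the outer cortex, had Gm13003 at 113 kb with 1.37 and 3.25 and 2 and 1 footprints. These lists hold 23, 18 and 22 genes, which are 0.111%, 0.0866% and 0.106% of all coding genes.

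Genes of developmental transcription factor families made up 23 of the 431 neighbours (5.34%), against 3.11% of the neighbours of distal peaks and 1.79% of all coding genes. Their 27 member peaks had signals of 0.495 to 4.45 in replicate 1 and 0.669 to 9.83 in replicate 2. Gm53 in the Hoxb cluster (2.66 and 5.22, 9.72 kb from Hoxb9) and Gm47061 beside Tfap2a (2.64 and 5.49) were among the most open. D730003I15Rik, 6.39 kb from the stress-response factor Atf3, had 2.01 and 5.44, and 1700064M15Rik, 64.4 kb from Foxn3, had 2.13 and 3.27. The median of the 27 was 1.02 and 1.79. Hes1, a repressor in Notch signalling, had 3 member peaks around it at 55.7 to 118 kb, all near 1 in replicate 1, from 0.827 to 1.04. 2610035D17Rik lay 390 kb from Sox9 with 0.802 and 1.66. Nr2f1, whose protein COUP-TFI is a nuclear receptor, had a peak at 19.03 kb (0.606 and 1.62) and one at 284 kb (0.947 and 2.37). Of the 23 neighbours, Foxf2, Pax3 and Tfap2a had no shared peak at a TSS of their own.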

How the data were processed

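DNase-seq was analysed in 2 libraries of 1 group. Per the labels the assembly is mm10; the sources used here name no aligner, peak caller, footprint caller or read depth, so counting error per peak could not be computed. The authors deposited per library a longer and a shorter, stricter peak list with 1 signal value per peak, footprints that all carry the p-value 0.01, and false discovery rates (adjusted p-values) for cut rates, listed below 0.05. The longer lists were used on chromosomes 1 to 19 with an overlap of at least 1 bp. Peaks were set against GENCODE M21 and RefSeq on GRCm38.p6 with Python 3.11.15, pandas 2.3.3 and pysam 0.24.0; coordinates are 1-based. Footprints count in every peak they overlap. Named genes are the 12 strongest and 5 weakest by mean rank, the extremes of footprints, distance, ratio and width, those at the thresholds, and the listed lncRNAs and neighbours. The members and lists were chosen with earlier results of these data known. Member selection was tested on simulated peaks.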

Additional observations from a re-analysis of the deposited data

How the results depend on the processing

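Of 85 alternative values for 7 results, 67 stayed within the 95% interval of the main value (counts within 1.5 times) and 18 moved further. The interval treats the 547 peaks as separate units, although some share a replicate 1 value. It serves as a yardstick for the settings and does not measure error between libraries or animals. The settings that changed overlap, list or library admit other peaks by construction. The setting on footprints asks more of the same 547 peaks, and no further cause was tested. Requiring 50% reciprocal overlap gave medians of 1.11 and 2.31, footprints in both libraries at 87.0% and stricter-list overlap at 71.9%. The stricter lists left 355 members with medians of 1.34 and 2.98, footprints at 92.4% and a CpG ratio of 0.615. Footprints that overlap between libraries were present at 64%. Leaving out a replicate gave 618 to 977 members, a replicate 1 median of 0.930, a replicate 2 median of 1.16, footprints at 45.9% to 70.7%, stricter-list overlap at 36.5% to 56.1% and a CpG ratio of 0.440 to 0.498. The share of open neighbours stayed at 76.4% to 79.2% under its 13 alternatives. No paired analysis was possible because there is 1 group.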
